A study of Danio rerio with 16 samples.

Results

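The vitellogenin genes *vtg2* (ENSDARG00000055809), *vtg3* (ENSDARG00000016448), *vtg4* (ENSDARG00000078429), *vtg5* (ENSDARG00000092126), *vtg6* (ENSDARG00000016825) and *vtg7* (ENSDARG00000092419) were followed in the ovary and testis of adult zebrafish. They were chosen by identifier and are 6 of the 32520 genes in the count table. Gonad RNA was sequenced from 16 fish of the AB strain, 1 fish per library, after 32 days of exposure to exemestane (EM) at 4 months of age. Both sexes were kept at 0, 50, 100 and 200 μg/L EM, which gave 8 groups of 2 fish. The unexposed fish were read as solvent controls, which received DMSO, the carrier of EM, and are called control females and control males. Exposed fish are called EM-females and EM-males. Each treatment was held in 1 tank, so tank and treatment cannot be told apart, and all p-values measure the spread between these fish only.

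Vitellogenins are large lipid and phosphorus carrying proteins that are cleaved into egg yolk. In female fish they are made mainly in the liver when oestradiol binds the oestrogen receptor, travel in the blood and are taken up by growing oocytes through a receptor on their surface. Males carry the same genes and normally express them weakly, which is why vitellogenin is widely used as a marker of oestrogen exposure in male fish. EM is a steroidal inhibitor of aromatase, the enzyme that makes oestradiol from androgen. In zebrafish *vtg4*, *vtg5*, *vtg6* and *vtg7*, together with *vtg1*, are type I vitellogenins, *vtg2* and *vtg8* are type II, and *vtg3* is the type III or phosvitin-less form. On the RefSeq assembly GRCz12tu, *vtg5*, *vtg4*, *vtg6*, *vtg7*, *vtg2* and *vtg8* lie in this order in 1 run, and *vtg3* lies elsewhere. Between *vtg5* and *vtg4* are 2 other protein-coding genes, and between the rest there are none. *vtg1* was not found there under its symbol, so its place, in or outside this run, was not established. Near-identical copies of this kind share reads. Reads that fit more than 1 place were not counted, so a difference between the type I copies may also reflect how much of each copy is unique, and this was not tested.

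Values are normalized counts, which are read counts divided by the size factor of the library. They are not corrected for gene length, so each gene is compared between fish and not with the other genes. Libraries held 4043394 to 9674058 counted reads in the males and 8311132 to 13821205 in the females. The oocyte markers summed to 63496 to 79747 normalized counts in the females and to 2177 to 7822 in the males, and the testis markers to 281 to 607 in females and 20001 to 39567 in males, so all 16 libraries carried the markers of their labelled gonad. Markers of liver tissue were also present, above all in the males. The 32 identified hepatocyte markers summed to 4385 to 54647 normalized counts in the males and to 166 to 2450 in the females, and the list is described beside the group comparisons below. In whole gonads, fewer cells of a type and less RNA per cell cannot be told apart.

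Reads of all 6 vitellogenin genes were counted in the dissected testes, in control and EM-males alike. Some of these counts were very low, with 1 read of *vtg2* in control male replicate 1 and 3 reads of *vtg5* in control male replicate 2. Whether the reads came from testis cells or from other tissue in the sample was not tested. Summed over the 6 genes, the males had 110 to 404 normalized counts. The EM-females had 9.90 to 36.3, less than any male. Control female replicate 1 stood apart from every other fish with 1235 normalized counts, against 56.1 in control female replicate 2, and was the highest female for 6 of the 6 genes. Any statement on control females rests on these unlike fish. No male stood apart in this way across the genes. Male replicate 1 at 50 μg/L was highest for *vtg3*, *vtg4* and *vtg6*, a male at 100 μg/L for *vtg2* and another for *vtg5*, and control male replicate 1 for *vtg7*.

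**Figure D1:**
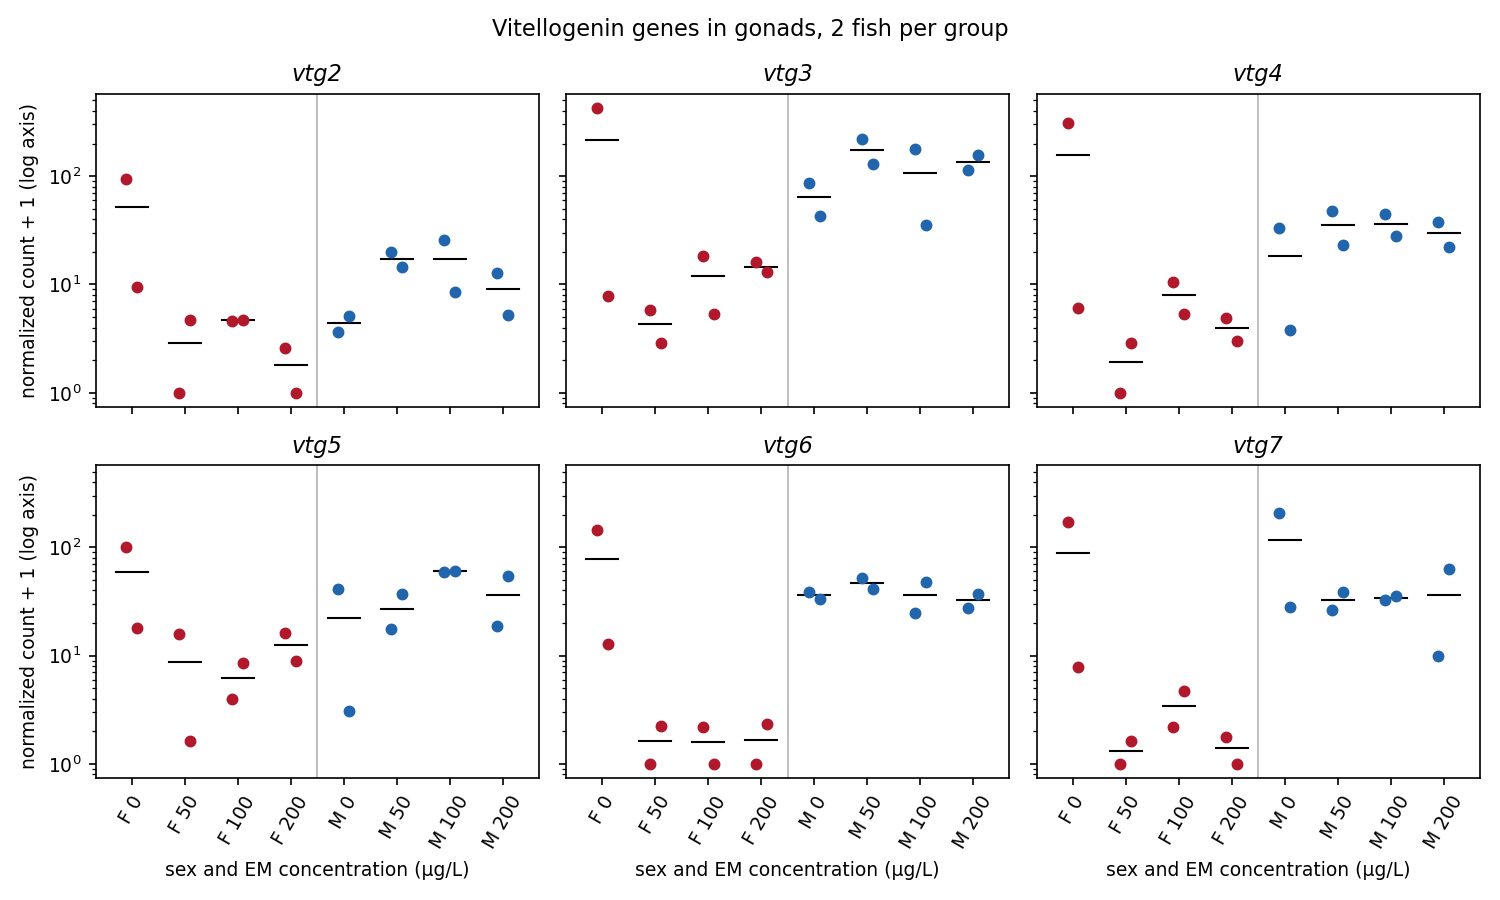
Normalized count plus 1 on a log axis for each vitellogenin gene, by sex (F, M) and EM concentration in μg/L. Points are single fish, 2 per group, and lines are group means; for all 6 genes the 6 EM-females lie below the 6 EM-males, and 1 control female lies far above the other.

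The type III gene *vtg3*, whose protein lacks the phosphate-rich phosvitin domain, was at 85.6 and 41.6 normalized counts in the testes of control males. The EM-males had 221 and 127 at 50 μg/L, 179 and 34.7 at 100 μg/L, and 113 and 155 at 200 μg/L. In females, *vtg3* had 422 and 6.80 in the controls, 4.76 and 1.86 at 50 μg/L, 17.4 and 4.35 at 100 μg/L, and 15.0 and 12.0 at 200 μg/L. Every male was above every EM-female and above control female replicate 2, while EM-males and control males overlapped because a male at 100 μg/L had the lowest value of the 8 males. In the order of group means, control females came first (215 ± 294, SD, n = 2) and the 4 male groups next, from 174 ± 66.5 at 50 μg/L to 63.6 ± 31.1 in control males, all overlapping their neighbours. The only gap fell between the control males and the EM-females at 200 μg/L (13.5 ± 2.15).

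*vtg2*, a type II gene, was covered by few reads in the males, so its single values are coarse. Control males had 2.67 and 4.16 normalized counts, from 1 and 6 reads. The EM-males had 19.1 and 13.4 at 50 μg/L, 24.8 and 7.59 at 100 μg/L, and 11.8 and 4.26 at 200 μg/L, from 2 to 29 reads. Each EM-male was thus above both control males, although the lowest of them exceeded the higher control by only a small margin (4.26 against 4.16). The control females had 94.0 and 8.50. In the EM-females *vtg2* had 0 and 3.71 at 50 μg/L, 3.59 and 3.73 at 100 μg/L, and 1.58 and 0 at 200 μg/L, all below both control females. *vtg2* was the only one of the 6 genes whose EM fish did not overlap the controls in either sex, above them in males and below them in females. Of all tested genes, 5.4% were higher in EM-males and 6.06% lower in EM-females without overlap. In control male replicate 1, 3 reads would stand at 8.02 normalized counts, above the EM-males with 7.59 and 4.26. The separation in males is therefore not secure at this depth.

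Among the type I copies, *vtg6* was the steadiest in the testis. It had 37.4 and 32.6 normalized counts in control males, 50.9 and 40.2 at 50 μg/L, 23.9 and 46.6 at 100 μg/L, and 26.5 and 36.2 at 200 μg/L. The highest male was 2.13-fold above the lowest, against 6.37-fold for *vtg3*, 9.27-fold for *vtg2*, 17.0-fold for *vtg4*, 23.3-fold for *vtg7* and 28.7-fold for *vtg5*. Control females had 143 and 11.9. In EM-females the gene was all but undetected, with 0 and 1.24 at 50 μg/L, 1.20 and 0 at 100 μg/L, and 0 and 1.33 at 200 μg/L. These values come from at most 2 reads, and 3 reads were taken as the limit that a library with none allows. No EM-female was therefore above the limit for *vtg6*, in libraries of 9275513 to 13821205 counted reads. Every male had at least 14 reads of it, in libraries of 4043394 to 9674058.

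*vtg7* was the only one of the 6 genes with a lower mean in EM-males than in control males. Control males had 206 and 27.0 normalized counts, and the EM-males had 25.4 and 37.9 at 50 μg/L, 31.6 and 34.7 at 100 μg/L, and 8.82 and 61.8 at 200 μg/L. One control male was far above all other males, and the other lay among the EM-males. Control females had 169 and 6.80. The EM-females had 0 and 0.619 at 50 μg/L, 1.20 and 3.73 at 100 μg/L, and 0.790 and 0 at 200 μg/L, all below both control females and every male.

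The testes of control males had 32.1 and 2.77 normalized counts of *vtg4*, and the EM-males 47.0 and 22.3 at 50 μg/L, 43.6 and 27.1 at 100 μg/L, and 36.8 and 21.3 at 200 μg/L. The EM-males spanned 21.3 to 47.0, and control male replicate 2, with 4 reads, was the only male below them. In females *vtg4* had 307 and 5.10 in the controls, 0 and 1.86 at 50 μg/L, 9.58 and 4.35 at 100 μg/L, and 3.95 and 2.00 at 200 μg/L. Control female replicate 2 was inside the range of the EM-females.

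*vtg5* had 40.1 and 2.08 normalized counts in control males, 16.5 and 35.7 at 50 μg/L, 58.1 and 59.7 at 100 μg/L, and 17.6 and 53.2 at 200 μg/L. Control male replicate 2 was again the lowest male, with 3 reads. Control females had 99.6 and 17.0, and the EM-females 14.8 and 0.619 at 50 μg/L, 2.99 and 7.46 at 100 μg/L, and 15.0 and 7.98 at 200 μg/L. The sexes came close after EM, with 15.0 in the highest EM-female and 16.5 in the lowest EM-male. Of the 8 group means, those of *vtg5* overlapped at every step of their order.

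EM-females were first compared with EM-males, which holds 2 fish of each sex at each concentration. All 6 genes were lower in EM-females with no overlap, and 6 of 6 passed the edgeR quasi-likelihood test at an adjusted p under 0.05. The sexes differ widely in gonad RNA, and 44.6% of the 20487 genes tested were called lower in EM-females, while 36.1% were lower without overlap. The median log2 fold change of the 6 genes was −3.47, beside −0.47 over all tested genes. With the size factors of DESeq2 in place of edgeR's own scaling the median of all genes moved to −0.69, and the 6 genes kept their direction and their calls.

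*vtg6* differed most between EM-females and EM-males, with a log2 fold change of −5.42 (SE 0.699, adjusted p = 1.79e-05, edgeR), and was at least 19.6-fold higher in EM-males when the EM-females were set at the limit of 3 reads per library. *vtg7* had −4.81 (SE 0.776, adjusted p = 1.11e-04, edgeR), *vtg3* −3.76 (SE 0.620, adjusted p = 1.34e-04, edgeR) and *vtg4* −3.17 (SE 0.649, adjusted p = 6.93e-04, edgeR). For *vtg2* the log2 fold change was −2.51 (SE 0.728, adjusted p = 0.00727, edgeR) and for *vtg5* −1.99 (SE 0.658, adjusted p = 0.0148, edgeR). A two-sided exact permutation test of the difference in mean normalized count gave p = 0.00216 for each gene, the smallest that 6 fish against 6 allow. All 6 calls held when any 1 library was left out.

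The hepatocyte markers moved in the same direction. All 31 tested were called lower in EM-females than in EM-males, with a median log2 fold change of −6.49. The list's genes with the most counts included *apobb.1*, an apolipoprotein B of lipoprotein particles, with 3.94 ± 4.21 normalized counts in EM-females and 3429 ± 6339 in EM-males (SD, n = 6 each), and *tfa*, the iron carrier transferrin, with 37.6 ± 51.0 and 1746 ± 2210. Markers of exocrine pancreas and gut summed to 64.4 to 221 normalized counts in the females and 2042 to 208233 in the males, and 10 of 10 were called lower in EM-females. Without the EM-males with the most hepatocyte counts, replicate 2 at 50 μg/L and replicate 2 at 200 μg/L, 5 of the 6 genes kept their calls, and *vtg5* moved to −1.75 on the log2 scale (adjusted p = 0.0827, edgeR). This set was left out after the data had been seen. The EM-males that were kept still had hepatocyte sums of 4527 to 20121 normalized counts, against 166 to 906 in the EM-females. This fit therefore does not separate liver tissue from sex, and the part of liver tissue in the sex difference was not tested.

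Among the 8 males the vitellogenin sum varied less than the hepatocyte sum, 3.66-fold against 12.5-fold. The EM-male with the fewest hepatocyte counts, replicate 1 at 50 μg/L with 4527, had 380 normalized counts over the 6 genes, and the one with the most, replicate 2 at 50 μg/L with 54647, had 277. Control male replicate 2 had 4385 hepatocyte counts and 110 over the 6 genes, 3.45-fold below male replicate 1 at 50 μg/L. Per 1000 hepatocyte counts, the 6 genes ranged from 5.06 to 84.0 in the 8 males, a 16.6-fold span. In females the same ratio was 504 and 260 in the control females and 32.5 to 118 in the EM-females, with no overlap. The share of all genes without overlap in such a ratio was not computed. The EM-males had 5.06 to 84.0, with a median of 20.2 against 85.3 in the EM-females. By this ratio the EM-females were thus higher in the median, the reverse of the vitellogenin sum, although the ranges overlapped. The hepatocyte sum of control female replicate 2 (216) lay within the EM-females (166 to 906). How well this sum measures liver tissue in an ovary, and the part of liver tissue in these ratios, were not tested.

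**Figure D2:**
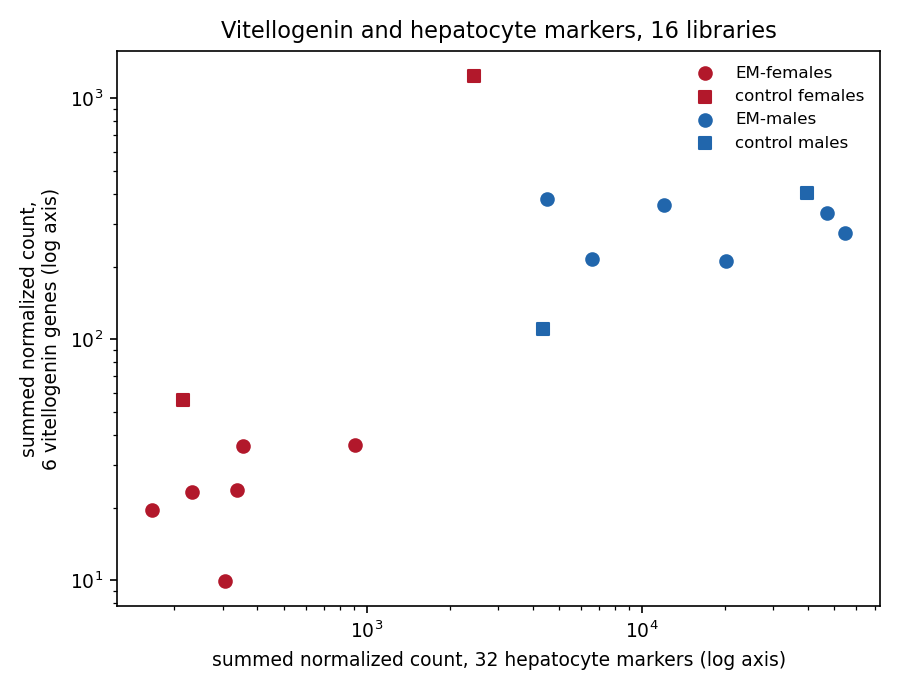
Summed normalized count of the 6 vitellogenin genes against that of 32 hepatocyte markers, both on log axes, with 1 point per library, red for females and blue for males, squares for controls and circles for EM fish. The males span 4385 to 54647 hepatocyte counts with 110 to 404 vitellogenin counts, and control female replicate 1 is at 2450 and 1235.

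EM-males were then compared with control males, which asks whether EM moved the genes in the testis. None of the 6 genes passed the edgeR test, where 0.00515% of 19417 tested genes did in either direction. The log2 fold change was positive for 5 genes, as it was for 51.1% of genes, at 1.86 for *vtg2* (SE 0.856), 1.13 for *vtg3* (SE 0.670), 1.07 for *vtg4* (SE 0.846), 1.05 for *vtg5* (SE 1.00) and 0.08 for *vtg6* (SE 0.475). That of *vtg7* was −1.79 (SE 0.743). Their adjusted p ranged from 0.802 to 0.989 (edgeR). At an unadjusted p under 0.05, *vtg7* passed with edgeR, and 2.23% of all tested genes did so in that direction. With DESeq2 none of the 6 passed after adjustment. Of the 31 hepatocyte markers tested, 22 had a positive log2 fold change in EM-males (median 0.52) and none was called.

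*vtg2* was the only one of the 6 without overlap between EM-males and control males, and 5.4% of all tested genes were higher in EM-males without overlap. Its two-sided exact permutation p was 0.107, where 6 fish against 2 can reach 0.0357. The value of *vtg7* rests on control male replicate 1, and without that fish its log2 fold change was 0.25 (adjusted p = 0.987, edgeR). Control male replicate 1 also had the highest exocrine pancreas and gut sum of all libraries, 208233 normalized counts, and 39652 hepatocyte counts, the third highest of the males. Their part in the *vtg7* value was not tested. Control male replicate 2 weighed on *vtg4* and *vtg5* in turn, and without it their log2 fold changes were 0.08 and 0.03.

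No trend with concentration was detectable. Among the EM-males 5 of the 6 genes had enough reads for a test of a slope on log2 concentration, from −0.26 per doubling for *vtg6* (SE 0.288, adjusted p = 0.917, edgeR) to 0.23 for *vtg5* (SE 0.468, adjusted p = 0.962, edgeR). In EM-females only *vtg3* and *vtg5* could be tested, and *vtg3* had 0.97 per doubling (SE 0.461, adjusted p = 1.00, edgeR). Neither sex had any gene called, 0% of 17541 genes tested in males and 0% of 14854 in females, while 768 and 627 passed at an unadjusted p under 0.05. DESeq2 called 67 genes in males and 109 in females, and none of the 6 was among them. Because each concentration was 1 tank, such slopes could not be told apart from tank differences.

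In females the 6 genes were all lower after EM by fold change, as 49% of genes were, and none passed after adjustment with edgeR, where 0% of 15907 genes were called lower and 0.0126% in either direction. The log2 fold changes ran from −2.85 for *vtg5* (SE 0.868) to −6.78 for *vtg6* (SE 1.03), with a median of −5.00 beside 0.01 over all tested genes and adjusted p from 0.127 to 0.280. All 6 passed at an unadjusted p under 0.05, as 4.96% of tested genes did in that direction. *vtg2*, *vtg5*, *vtg6* and *vtg7* did not overlap, as was seen for 6.06% of genes, and each had an exact permutation p of 0.0357, the smallest possible here. Against the limit of 3 reads, *vtg6* fell short of the control females by at least 40.4-fold, and of control female replicate 2 alone by at least 6.22-fold. DESeq2 called 5 of the 6, all but *vtg5* (adjusted p = 0.0831), among 119 genes called lower of 25108 tested.

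How far this comparison rests on 1 control fish differed between the copies, although the values come from few reads. Control female replicate 2 had 6 reads of *vtg4*, 8 each of *vtg3* and *vtg7*, 10 of *vtg2*, 14 of *vtg6* and 20 of *vtg5*. Counting error and a difference between the copies were not separated. Set against control female replicate 2 alone, *vtg6* still had a log2 fold change of −4.10, *vtg7* −2.64, *vtg2* −2.01 and *vtg5* −1.09, whereas *vtg4* had −0.52 and *vtg3* 0.40, with adjusted p from 0.457 to 0.951 (edgeR). Of the 6 EM-females, 6 lay below that fish for *vtg2*, *vtg5*, *vtg6* and *vtg7*, 5 for *vtg4* and 3 for *vtg3*. The same fish was also exceeded by most males. All 8 males were above it for *vtg3*, *vtg6* and *vtg7*, 7 for *vtg4*, 6 for *vtg5* and 4 for *vtg2*. The hepatocyte markers had the same sign, since 18 of 19 tested had a negative log2 fold change in EM-females (median −1.76) with none called, and control female replicate 1 had the highest hepatocyte sum of the females at 2450. Their part in these values was not tested.

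**Figure D3:**
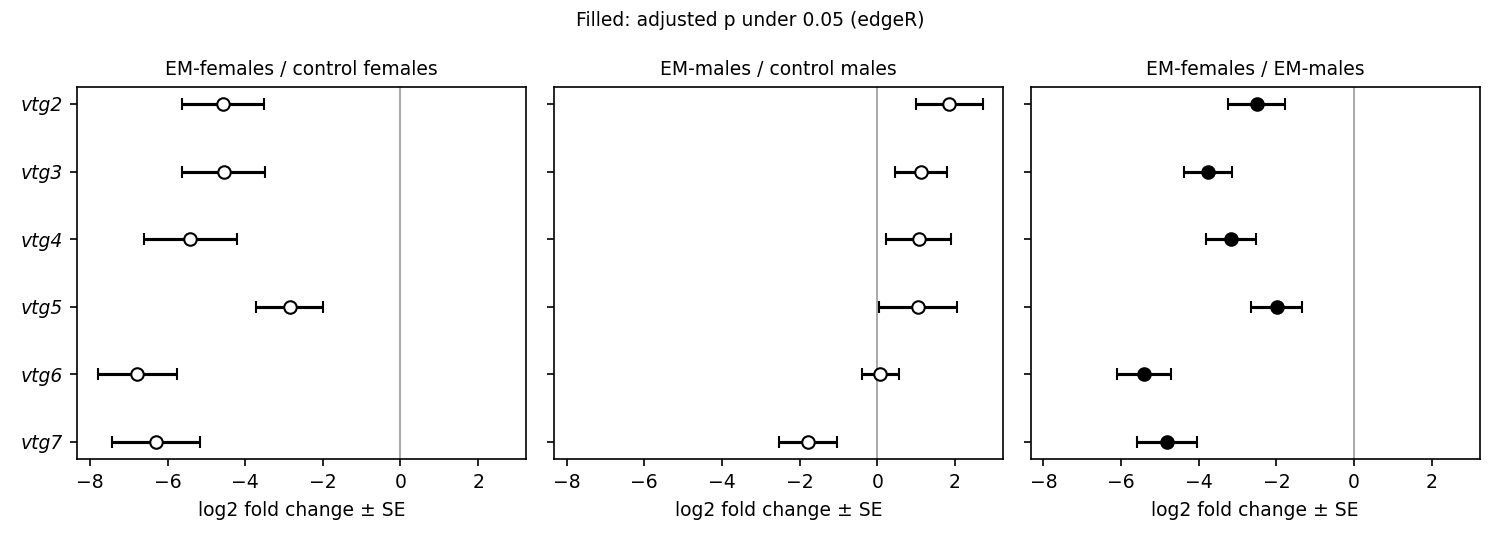
Log2 fold change with its standard error (edgeR) of each vitellogenin gene in EM-females over control females, EM-males over control males and EM-females over EM-males. Filled points passed an adjusted p of 0.05; all 6 did between EM-females and EM-males and none in the other comparisons, where the values lie between −6.78 and −2.85 in females and between −1.79 and 1.86 in males.

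Whether EM acted on the genes differently by sex was tested in 1 model of all 16 libraries. The estimate, females minus males, was negative for each of the 6 genes, as for 48.6% of all genes, from −6.81 for *vtg6* (SE 1.34, adjusted p = 0.266, edgeR) to −3.96 for *vtg5* (SE 1.48, adjusted p = 0.595, edgeR). None passed, as 0% of 22106 genes did, with 1680 genes at an unadjusted p under 0.05. All 6 were under 0.05 unadjusted, where 3.97% of genes were with a negative estimate. DESeq2 called *vtg2*, *vtg3*, *vtg4* and *vtg6*, among 56 genes called with a negative estimate and 46 with a positive one of 28208 tested. Without control female replicate 1 the estimates moved to between −0.74 for *vtg3* and −4.13 for *vtg6*, and none was called by edgeR. The hepatocyte markers had the same sign, with 31 of 32 estimates negative (median −2.74, beside 0.03 over all genes) and none called, and their part in these estimates was not tested.

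Between the controls, none of the 6 genes passed with edgeR, while 16.5% of 18494 genes were called higher in control females and 29.5% lower. *vtg2* came nearest, with a log2 fold change of 3.91 in females over males (SE 1.42, adjusted p = 0.0703, edgeR) and both control females above both control males, as in 32.9% of genes. It passed with DESeq2 (4.00, adjusted p = 0.0199), without the filter on low counts (4.01, adjusted p = 0.0459, edgeR) and with all 16 libraries in the fit (4.08, adjusted p = 0.0335, edgeR). *vtg4* had 3.54, *vtg3* 1.96, *vtg5* 1.81, *vtg6* 1.31 and *vtg7* −0.17, with adjusted p from 0.197 to 0.937. With 2 fish against 2 an exact permutation test cannot go below 0.333. The result depended on which control female was kept. With replicate 1 alone, edgeR called *vtg2* (4.86, adjusted p = 0.0193), *vtg3* (3.02, adjusted p = 0.0299) and *vtg4* (4.59, adjusted p = 0.0143) higher in the control female. With replicate 2 alone, the ovary had less *vtg3* (−2.97), *vtg4* (−1.39), *vtg6* (−1.35) and *vtg7* (−3.81) than the control testes by log2 fold change, more *vtg2* (1.38) and a value of 0.04 for *vtg5*, none of them called. All 28 tested hepatocyte markers had a negative log2 fold change in control females over control males (median −3.55), with 4 called lower, and their part in these values was not tested.

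The make-up of the vitellogenin reads was described as the share of each gene in the reads of the 6, in the 15 libraries with at least 20 such reads. A longer gene yields more reads, so the shares are read between fish, and the leading gene of a fish leads in reads only. Intervals are 95% Wilson intervals and cover counting error only. *vtg3* held the largest share in 5 of the 6 EM-males, from 46.0% to 58.2%. In EM-male replicate 2 at 100 μg/L it held 16.5%, and *vtg5* led with 28.4%. This was not particular to EM-males. *vtg3* also led in control male replicate 2 (37.7%) and control female replicate 1 (34.2%). Among EM-females it led in replicate 1 at 100 μg/L (48.3%) and replicate 2 at 200 μg/L (51.4%). It tied with *vtg5* in EM-female replicate 1 at 200 μg/L (41.3%), and in the remaining libraries another gene led. The other copies varied among the EM-males beyond counting error. *vtg7* held 4.11% (interval 1.90% to 8.68%) in replicate 1 at 200 μg/L and 18.6% (13.3% to 25.4%) in replicate 2.

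Both control males had a larger share of *vtg7* than any EM-male. It was 51.0% in control male replicate 1 and 24.5% in replicate 2, and 4.11% to 18.6% in the 6 EM-males. In numbers the control shares are 77 of 151 reads and 39 of 159 reads. The interval of control male replicate 2 (18.5% to 31.8%) overlapped that of EM-male replicate 2 at 200 μg/L (13.3% to 25.4%). The *vtg7* level of this control male, 27.0 normalized counts, lay among the EM-males. *vtg6* was at 0% to 5.71% of the vitellogenin reads in 5 EM-females, 6.64% to 22.2% in EM-males, 9.27% and 29.6% in control males and 11.6% and 21.2% in control females. The EM-female shares rest on 35 to 60 reads per library, and a fish with 0 of 46 *vtg6* reads had an interval of 0% to 7.71%, which reaches into the range of the EM-males. The sixth EM-female had 2 *vtg6* reads of 16 (12.5%), and with *vtg1* and *vtg8* in the sum the EM-females reached 5.26% while a male at 100 μg/L had 2.11%, so the *vtg6* share did not separate the groups. *vtg5* took up to 75.7% of the reads in an EM-female, of 37 reads in all. These are descriptions and were not tested.

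**Figure D4:**
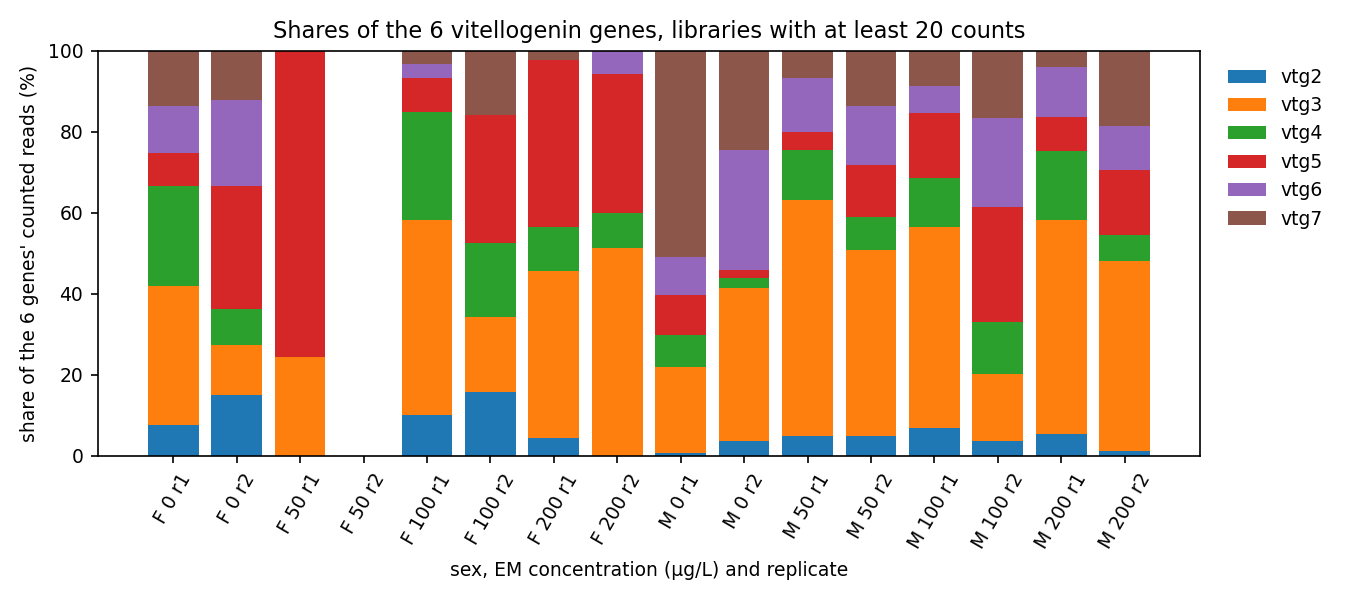
Share of each vitellogenin gene (%) in the summed reads of the 6 genes, by sex (F, M), EM concentration in μg/L and replicate; EM-female replicate 2 at 50 μg/L, with 16 reads, is left blank. *vtg3* leads in 5 of 6 EM-males and in some fish of every other set. *vtg7* holds 51.0% and 24.5% in the control males, and *vtg6* is at most 5.71% in the 5 EM-females shown.

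The other vitellogenins were *vtg1*, a further type I gene, and *vtg8*, of type II. *vtg1* had 5.35 and 11.1 normalized counts in control males, 72.5 and 58.0 in the males at 50 μg/L, 760 and 27.1 at 100 μg/L, and 30.9 and 27.7 at 200 μg/L. As with *vtg2*, each EM-male was above both control males, and *vtg1* did not pass either (adjusted p = 0.809, edgeR). Between the controls it was called higher in females (log2 fold change 7.08, adjusted p = 0.0471, edgeR). That call rests on control females with 2243 and 19.5, while EM-females had 0 to 68.9 with a median of 15.1. When *vtg1* was added to the sum it held 64.5% of the vitellogenin reads in control female replicate 1 and 67.0% in the male with 760, and 1.27% and 9.09% in the control males. Between EM-females and EM-males *vtg1* was called lower in females (log2 fold change −2.27, adjusted p = 0.0304, edgeR) with overlapping groups. *vtg8*, at most 3 reads in each EM-female, was at least 3.79-fold higher on average in EM-males (adjusted p = 8.40e-04, edgeR), also with overlapping groups. The EM-males had 0 to 16 reads of *vtg8*, with 1 in replicate 1 at 50 μg/L and 3 and 0 at 200 μg/L.

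Genes that act upstream and downstream of vitellogenin were read from fixed lists. Of the oestrogen receptors, *esr1*, the receptor that switches on vitellogenin in fish liver, was lower in EM-females than in EM-males (2.13 ± 1.51 against 19.7 ± 20.4 normalized counts, SD, n = 6 each, log2 fold change −2.90, adjusted p = 0.00150, edgeR). Single EM-males had 6.69 to 59.6 normalized counts of *esr1*. The hepatocyte markers were lower in EM-females too (median log2 fold change −6.49), and the part of liver tissue in the *esr1* difference was not tested. *esr2a*, a second nuclear oestrogen receptor, was higher in EM-females (132 ± 48.4 against 20.5 ± 20.7, log2 fold change 3.19, adjusted p = 9.94e-05, edgeR). Of 12 tested genes of yolk uptake and processing, 6 were called higher and 6 lower in EM-females than in EM-males, where 32.5% of all genes were called higher and 44.6% lower. *vldlr*, a lipoprotein receptor that takes up vitellogenin into oocytes, had 6185 ± 450 in EM-females and 205 ± 195 in EM-males (log2 fold change 5.42, adjusted p = 1.34e-06, edgeR). The control females had 5525 ± 115 of it (SD, n = 2).

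With edgeR, none of the genes of these lists was called between EM-females and control females or between EM-males and control males. In either direction, 0.0126% of 15907 and 0.00515% of 19417 tested genes were called there. Lists this short would hold hardly any call at such shares, so the absence was not read as a result. DESeq2 called 392 and 106 genes, and its calls within these lists are not given here. In females the uptake list had 7 of 10 tested genes above 0 and a median log2 fold change of 0.23, against −5.00 for the 6 vitellogenins. The latter value leans on control female replicate 1. Without that fish the 6 vitellogenins ran from −4.10 for *vtg6* to 0.40 for *vtg3*. Of the steroid synthesis list, 2 of 10 tested genes were called higher and 4 lower in EM-females than in EM-males, shares no larger than those over all genes. *star*, which brings cholesterol into mitochondria for steroid synthesis, had 7.56 ± 4.58 and 1620 ± 439 (log2 fold change −7.57, adjusted p = 4.83e-09, edgeR). *cyp17a1*, which makes androgen precursors, had 770 ± 149 and 198 ± 113 (log2 fold change 2.25, adjusted p = 2.80e-05, edgeR).

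The genes whose levels ran most alike with the vitellogenins were ranked by the Pearson coefficient between log2(normalized count + 1) and its mean over the 6 genes. Points are single fish, they share depth and tissue content, and no p is given. The genes named are the top of 13800 to 19147 coefficients over 8 or 16 fish. How many unrelated genes would rank as high by chance was not tested. Among the 8 males the first 5 genes with a symbol were *parp10*, *ugl*, *cenatac*, *tmod4* and *si:dkey-199f5.6*, from 0.96 to 0.93. Among the 8 females they were *dmac2l*, *gabpb1*, *scarb1*, *fbxw10* and *si:dkey-92i17.2*, from 0.97 to 0.93. Control female replicate 1 had 1235 normalized counts over the 6 genes, and the other females at most 56.1. How far the coefficients in females rest on that fish was not tested. Over all 16 libraries *atp6v0a2* came first at 0.88. The hepatocyte markers had a median coefficient of 0.46 in males, where the median of all 19147 genes was 0.02. In females their median was 0.70, beside −0.02 over all 13800 genes. Among the 100 genes most alike, of 19147 compared in males, there were 0 of the 31 hepatocyte markers. So short a list would hold few of any 31 genes, and the 0 was not read as a result. In females 2 of 17 markers were among the 100 most alike of 13800 genes. Over all 16 libraries 10 of 31 were among the 100 most alike of 18564 genes, with a median coefficient of 0.73 beside 0.24 over all genes.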

How the data were processed

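Gonad RNA of 16 adult zebrafish was analysed, and groups and replicate numbers follow the sample labels. Per the submitters' processing notes, the authors aligned reads to GRCz11 using HISAT2 2.0.5, took out duplicates using SAMtools 1.5 and obtained gene counts from HTSeq 0.9.1. The deposited counts are whole numbers for 32520 genes, followed by 5 HTSeq tallies that were not used as genes. One cell held 2 values and was read as such. The deposited normalized signal, for 28353 genes, was made by the authors by dividing each count by a DESeq2 size factor, and the factors recomputed here (0.374 to 1.89) gave the same values within 5.39e-08%. Reads with more than 1 alignment, 24.8% to 36.7% of tallied reads per library, are not in the counts.

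Counts were tested with edgeR 4.0.16 (TMM scaling, filterByExpr, robust quasi-likelihood test, two-sided) in R 4.3.3. P-values were adjusted by Benjamini-Hochberg over all tested genes, with a threshold of 0.05. The standard error is the log2 fold change over the root of the F statistic. EM-females and EM-males were compared with concentration as a factor, and slopes were fitted on log2 concentration. Exact permutation tests used mean normalized counts. A library at or under 3 counts was taken to be at the floor, and folds against a group at the floor are lower bounds. The code was tested on simulated data.

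The named genes were the 6 vitellogenins, the other vitellogenins, up to 4 genes of each marker or pathway list with the most counts, and the 5 genes most like the vitellogenins. The vitellogenins and the lists were chosen with earlier results of these data known. The marker and pathway lists were for oocyte, testis, hepatocyte, erythrocyte, exocrine pancreas and gut, oestrogen receptors, yolk uptake and processing, steroid synthesis, other large lipid transfer proteins and other vitellogenins. The erythrocyte markers summed to 10.8 to 51.3 normalized counts in females and 164 to 1056 in males, with 5 of 5 tested called lower in EM-females than in EM-males, and all 3 of the other large lipid transfer proteins were called lower too. Symbols were paired with identifiers from a gene name table and the study's supplementary tables. Alternatives were DESeq2 1.42.0, edgeR with the DESeq2 scaling, every gene with a count kept, a replicate block, all 16 libraries in 1 fit, single concentrations and leaving out each library. Levels per coding length were planned and not run, since no lengths were used here. Null control and juvenile samples were not analysed here.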

Additional observations from a re-analysis of the deposited data

Results flagged for a closer look

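*vtg7* in EM-females had 1 value far from the others. EM-female replicate 2 at 100 μg/L had 3.73 normalized counts, from 6 reads, while the other 5 EM-females had 0 to 1.20. Of the 12 sets of 6 fish examined, this was the only one marked by a Dixon ratio, the gap to the next value over the range, above 0.625. That limit marks about 1 in 20 sets by chance when values are normally distributed. These values come from 0 to 6 reads, so that rate need not hold here. The value stayed below both control females and every male.

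*vtg2* differed from its controls in opposite directions in the sexes. Each of the 6 EM-females was below both control females and each of the 6 EM-males was above both control males. Of all tested genes, 6.06% were lower in EM-females without overlap and 5.4% were higher in EM-males without overlap. The difference of the log2 fold changes, females minus males, was −6.40 (SE 1.65), and its adjusted p was 0.422 with edgeR and 0.0148 with DESeq2. Over the 20 alternatives run for it the estimate ranged from −7.27 to −3.84 and the adjusted p from 0.0148 to 0.936. The male values come from 1 to 29 reads. Control male replicate 1 had 1 read, and the floor of 3 reads in its library stands at 8.02 normalized counts. That is above the EM-males with 7.59 and 4.26, so the separation in males is not secure at this depth.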

How the results depend on the processing

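The 6 calls between EM-females and EM-males held in all 72 fits that left out 1 library and in 35 of 36 others, the exception being *vtg5* without the EM-males richest in hepatocyte counts (−1.75, adjusted p = 0.0827, edgeR), a choice made after seeing the data. Calls over all genes depended on the tool. Between EM-females and control females edgeR called 2 genes, against 392 with DESeq2, 7 without the filter, 1 with all 16 libraries fitted and 0 at each single concentration. Between EM-males and control males it called 1, against 106 with DESeq2 and 0 with the replicate block, with all 16 libraries or at any single concentration. DESeq2 called 102 genes for the interaction, 109 for the slope in females and 67 in males, where edgeR called 0. Leaving out 1 library gave 0 to 20 genes for EM-females against control females, 0 to 7 for EM-males against control males, 4895 to 7536 between the controls (8498 with all 4) and 0 to 5 for the interaction.

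Leaving out 1 library turned the sign of some log2 fold changes that had not been called. In EM-females against control females *vtg3* ranged from −5.52 to 0.40, the latter without control female replicate 1. In EM-males against control males *vtg6* ranged from −0.032 to 0.18 and *vtg7* from −2.61 to 0.25, the latter without control male replicate 1, and *vtg6* was −0.17 at 200 μg/L alone. Between the controls *vtg3* ranged from −2.97 to 3.02, *vtg4* from −1.39 to 5.89, *vtg6* from −1.35 to 2.27 and *vtg7* from −3.81 to 1.82, with 0.034 for *vtg7* when all 16 libraries were fitted. There *vtg2*, *vtg3* and *vtg4* passed without control female replicate 2, and *vtg2* also with DESeq2, without the filter and with all 16 libraries. Slopes per doubling ranged in females from −0.061 to 1.69 for *vtg5*, and in males from −0.36 to 0.10 for *vtg3*, −0.34 to 0.13 for *vtg4*, −0.13 to 0.66 for *vtg5* and −0.67 to 0.47 for *vtg7*. The cause of these changes was not tested. A fish left alone in its group was assumed to vary like the other group.

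Replicate numbers name different fish, and nothing in the labels pairs them. Of 12 pairs of groups of the same sex, 3 had a correlation of same-numbered deviations over 0.1 (−0.33 to 0.35). These were the pairs among the EM-male groups, at 0.19, 0.24 and 0.35. Control males gave −0.24, −0.27 and −0.33 with the EM-male groups, and pairs of female groups lay between −0.041 and 0.0085. The source of this pattern in males was not tested, and the numbers were not taken as pairs. With the replicate block edgeR called 15747 genes between EM-females and EM-males, beside 15780 without it, no call of the 6 genes changed in any comparison, and the slope of *vtg7* in males became −0.057. Shares were available for 11 libraries at a minimum of 50 reads and for all 16 with *vtg1* and *vtg8* in the sum. Of the 5 genes named as most alike, a pseudocount of 5 kept 4 in males, 2 in females and 4 over all libraries, and a minimum mean of 50 normalized counts kept 3 over all libraries. With 2 control fish per sex, and at most 6 reads for some values of every gene, small differences in the 6 genes were not detectable.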
